A study of Mus musculus with 74 samples.

Results

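Acetylation of histone H3 at lysine 27 (H3K27ac) was measured in mouse quadriceps with and without Bcl6, and the regions described here are the acetylated regions far from gene starts that held no binding peak of BCL6. They were chosen among the merged H3K27ac regions deposited for the acute and chronic series by 4 conditions. A region lay more than 1000 bp from the nearest annotated transcription start, was annotated as intronic or intergenic, was not annotated to an LTR element, and overlapped none of the 10925 BCL6 peaks. Of 73866 merged regions, 53312 (72.17%) met the conditions. No acetylation value entered the choice beyond the authors' decision that a peak was there.

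H3K27ac marks active promoters and active enhancers, the distal elements that raise transcription of genes on the same chromosome. BCL6 is a zinc finger repressor that recruits the corepressors SMRT, NCOR and BCOR, and with them histone deacetylases that remove acetyl groups from histones. Its DNA motif resembles that of STAT factors, and in B cells and liver it is known to counter STAT5 at shared sites.

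The acute series held 3 imKO and 3 Ctr libraries, and the chronic series another 3 imKO and 3 Ctr libraries, from C57BL/6 mice. The imKO mice were AEC-Esr Cre (+):Bcl6 fl/fl and the Ctr mice Bcl6 fl/fl without Cre, and all had received tamoxifen (TMX), the drug that switches on an inducible Cre. Both groups thus carried the floxed alleles and the drug, and only imKO mice carried Cre, so effects of Cre itself and of losing Bcl6 cannot be told apart here. The file headers give week 1 for the acute and week 12 for the chronic libraries, the labels do not spell out AEC, and no ages are used here. BCL6 peaks came from 1 wild-type quadriceps library without replicate. The list of merged regions was built from acute peak calls of both genotypes, and the chronic libraries were counted in the same regions. Signal is the number of ChIP tags in a region after the authors scaled each library to 10000000 tags. Values are listed for imKO_6346, imKO_6348 and imKO_6349 and for Ctr_6345, Ctr_6366 and Ctr_6371 of the acute series, and for imKO_1794, imKO_1802 and imKO_1803 and for Ctr_1795, Ctr_1801 and Ctr_7362 of the chronic series, in that order. P-values rest on the spread between these libraries, with the variance of each region drawn toward a trend over all regions tested.

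Libraries held 7794885 to 23016334 tags. Chronic Ctr_1801 was the shallowest, and it correlated with the other 5 chronic libraries at 0.622 to 0.678, against 0.696 to 0.863 among all other pairs of one series. It had 18.1% of its tags in merged regions, and 6.955% of the distal regions without BCL6 had no tag there. The targeted gene gives no check in these ChIP data. In other mice, Bcl6 transcripts over the whole gene, deleted exons not separated, averaged 229 ± 38.8 CPM (counts scaled to library size) in mKO and 209 ± 94.5 CPM in Ctr RiboTag mRNA (SD, n = 4 each; log2 change 0.14, edgeR adjusted p = 0.84). In poly(A) RNA the authors' log2 value of Bcl6 averaged 10.11 ± 0.124 in mKO (n = 5) and 10.34 ± 0.089 in Ctr muscles (n = 4; change -0.23, limma adjusted p = 0.111).

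Sequence is shown from RefSeq windows around annotated starts (GRCm38.p6), which run from 250 bases before a start to 50 after it. Of 32851 such windows, 226 lay wholly in 214 of the regions, at starts that the regions' own annotation places elsewhere or does not list. Exactly 1 of those 214 regions was called changed, an intergenic region on chr2:178679785-178680712, 249733 bp from the start of its nearest annotated gene, Cdh26. Over all tested distal regions without BCL6, 0.06583% were called in the acute and 0.1102% in the chronic series. Of all merged regions tested, 0.0932% and 0.167% were called. The window of the predicted gene Gm35815 inside the Cdh26 region is shown first (chr2:178680388-178680687, + strand). A window of Gm40491 (chr12:86833714-86834013, - strand) in a strong region near Irf2bpl that was not called, among the 5 windows whose regions had the highest signal, is shown for comparison. Capitals mark matches to TTCNNNGAA (the STAT and BCL6 core), CAGCTG (an E-box bound by myogenic factors), TGANTCA (AP-1) or GGAATG (TEAD), searched on both strands.
Gm35815: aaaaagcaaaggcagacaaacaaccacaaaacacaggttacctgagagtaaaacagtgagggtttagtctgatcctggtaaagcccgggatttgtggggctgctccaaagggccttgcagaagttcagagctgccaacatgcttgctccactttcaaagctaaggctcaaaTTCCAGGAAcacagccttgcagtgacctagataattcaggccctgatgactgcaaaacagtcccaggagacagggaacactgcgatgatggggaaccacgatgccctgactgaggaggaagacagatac
Gm40491: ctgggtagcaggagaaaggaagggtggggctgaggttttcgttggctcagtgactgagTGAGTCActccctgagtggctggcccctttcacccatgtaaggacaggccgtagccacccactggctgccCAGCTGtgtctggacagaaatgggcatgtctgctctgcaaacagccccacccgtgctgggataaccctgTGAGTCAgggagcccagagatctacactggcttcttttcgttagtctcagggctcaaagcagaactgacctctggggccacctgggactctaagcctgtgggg
TTCNNNGAA was found in 7.08% of the 226 windows, against 8.30% of all windows of the same length. The narrower BCL6 form TTCCTNGAA, whose matches all lie within matches of TTCNNNGAA, was found in 1.77% of the windows against 1.59% of all. CAGCTG was found in 24.3% against 16.3%, TGANTCA in 9.29% against 7.81%, and GGAATG in 15.9% against 14.7%. These are descriptions of letters, not of binding.
The region holding the Gm35815 start had 66.5, 49.6 and 43.6 tags per 10000000 in chronic imKO libraries, against 13.4, 14.1 and 22.2 in chronic Ctr libraries. All 3 imKO values lay above all 3 Ctr values, and the region rose by 1.64 on the log2 scale (SE 0.30, limma adjusted p = 0.0297).
In the acute series it had 20.1, 11.8 and 32.7 in imKO libraries and 9.34, 13.3 and 26.7 in Ctr libraries, values that overlap (adjusted p = 0.854).

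The 53312 regions were short and mostly of low signal. Of them 33762 (63.33%) were intronic and 19550 (36.67%) intergenic. They were 500 to 1000 bp wide, and 35372 (66.35%) were exactly 500 bp. The median distance to the nearest start was 26149.5 bp and the largest 1350905 bp. Repeats other than LTR elements annotated the centre of a minority, 8.743% on SINE and 4.078% on LINE elements, and 82.402% were on no repeat. The authors' peak calls placed 17960 (33.69%) in both acute genotypes, 17847 (33.48%) in acute imKO alone and 17505 (32.84%) in acute Ctr alone.

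Of the genes nearest to these regions, 3685 had a single one and 1413 had at least 10. Nfia, a transcription factor gene, had most with 59, and Plpp3, Dlc1, 9430078K24Rik and Foxp1 had 56 or 57 each. Median signal over the 12 libraries was 13.9 tags per 10000000. Per kb of region the median was 25.2, against 42.3 in the 2432 distal regions that held a BCL6 peak and 98.9 in the 10927 regions within 1000 bp of a start without BCL6. The strongest per kb lay in an intron of Dbp, a clock output transcription factor, at 513 per kb. After it came regions nearest to Kmt5b (a histone H4 methyltransferase), Mirlet7a-1, 1810026B05Rik, Atp23, Igsf8, Per1 (a clock repressor), the proteasome gene Psma3, the 14-3-3 gene Ywhaz and Btd, which encodes biotinidase. None of these 10 was called in either series, and the Dbp region averaged 240 ± 43.0 in acute imKO and 260 ± 31.0 in acute Ctr libraries, a log2 change of -0.12.

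Together the regions took 10.98 ± 0.206% of all tags in acute imKO and 10.93 ± 0.0436% in acute Ctr libraries (SD, n = 3 each). In the chronic series the share was 10.49 ± 0.188% in imKO and 10.31 ± 1.01% in Ctr libraries. The groups overlapped in both series, as far as 3 libraries a group show. The same share for distal regions that held BCL6 was 0.8685 ± 0.0428% in acute imKO and 0.7979 ± 0.0419% in acute Ctr, and 0.8917 ± 0.0299% in chronic imKO and 0.7803 ± 0.0620% in chronic Ctr libraries.

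The labelled tissue was checked against marker genes. The 78 regions nearest to 15 of 18 muscle fibre markers had a median signal of 15.5 and a highest of 81.0, against a median of 12.3 for the 412 regions nearest to markers of 8 other cell types (71 of 102 genes). Medians of those 8 lists ran from 10.06 (fibroblast and tendon) to 16.95 (nerve and Schwann cell), and 2 of them held a region stronger than any of the muscle list, at 92.7 (nerve and Schwann cell) and 91.8 (fibroblast and tendon), so that the level of these regions did not set muscle markers apart from all others. Of the erythroid markers only 1 gene of 10 had any region. None of the regions of these 9 lists was called in either series. For the macrophage and myeloid list, which holds 24 regions of 10 genes, summed chronic signal ran from 205.6 to 216.5 in imKO and from 278.4 to 345.4 in Ctr libraries, groups that do not overlap. In the acute series it ran from 327.6 to 397.1 in imKO and from 363.1 to 457.0 in Ctr libraries. In the acute series the sums of 2 other lists were lower in imKO without overlap. Fibroblast and tendon sums ran from 1630 to 1778 in acute imKO and from 1806 to 2026 in acute Ctr libraries, and smooth muscle and pericyte sums from 920.1 to 987.3 in acute imKO and from 993 to 1009 in acute Ctr libraries. All other marker sums overlapped between the groups of a series, and no sum was tested. Groups of single regions did not overlap, in either direction, in 13.13% of acute and 12.54% of chronic tested regions. Muscle fibre marker sums ran from 1657 to 1806 in acute imKO and from 1481 to 1731 in acute Ctr libraries, and from 1798 to 1937 in chronic imKO and from 1662 to 1903 in chronic Ctr libraries. The part of cell composition in the results below was not tested. In such bulk tissue, fewer cells with a mark and less of the mark per cell cannot be told apart.

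The acute comparison sets imKO beside Ctr libraries of week 1 in distal regions that overlapped no BCL6 peak, however near one lay. Of 51646 such regions tested, 32 were higher and 2 lower in imKO, 0.06583% of them. Over all 71868 merged regions tested, 0.0932% were called, 0.0891% higher and 0.00417% lower, so that their share called was no higher than that of all regions. A region was tested if its signal reached 5 in at least 3 libraries, and called at a limma adjusted p below 0.05. The median log2 change was -0.0021, and from the 5th to the 95th percentile changes ran from -0.75 to 0.77. Groups did not overlap in 13.13% of these regions, against 13.0% of all. Among distal regions that held BCL6, 21 were higher and 1 lower of 2408 (0.9136%), with a median of 0.12. The difference between these shares was not tested.

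The 34 acute calls fell into 29 loci with gaps of at most 100 kb, and were nearest to 31 genes. The smallest adjusted p belonged to a region on a LINE element 8741 bp upstream of Samd7, a gene known from photoreceptors (chr3:30737234-30737871). It had 75.05, 88.6 and 77.5 tags per 10000000 in acute imKO libraries, against 22.1, 18.5 and 33.1 in acute Ctr libraries. The imKO libraries were close to each other and all far above the Ctr libraries, and the region rose by 1.71 (SE 0.23, adjusted p = 0.000266). It was also called in the chronic series, as described below.

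Akt1 encodes the kinase at the centre of insulin and IGF1 signalling in muscle. A region in its first intron, 1305 bp from the start (chr12:112672721-112673221), had 51.3, 50.2 and 44.8 in acute imKO and 10.2, 15.1 and 8.65 in acute Ctr libraries. The acute imKO libraries were close to each other and far above Ctr, with a log2 change of 2.05 (SE 0.29, adjusted p = 0.000615). In chronic imKO libraries it had 55.6, 56.8 and 71.5, against 17.2, 19.2 and 14.3 in chronic Ctr libraries, a log2 change of 1.80 (SE 0.27, adjusted p = 0.00532). The nearest BCL6 peak was 1475 bp away. A region upstream of the neighbouring gene Cep170b (chr12:112701277-112702077), a centrosomal and microtubule protein gene, was called in both series as well. It had 46.5, 42.3 and 50.5 in acute imKO and 7.64, 13.3 and 21.6 in acute Ctr libraries, and 115, 101 and 81.0 in chronic imKO against 35.8, 11.6 and 23.03 in chronic Ctr libraries. Both groups were apart in both series (log2 changes 1.75 and 2.15, adjusted p = 0.00913 and 0.00484). The Akt1 and Cep170b regions together span 29356 bp.

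Other calls with high changes in the acute series had low signal in Ctr. An intronic region of Nos1, the neuronal nitric oxide synthase of muscle fibres, had 22.7, 13.3 and 21.7 in imKO and 1.70, 0.58 and 7.21 in Ctr libraries (log2 change 2.59, SE 0.53, adjusted p = 0.0359). A pair of intronic regions of Uck2, a kinase of pyrimidine salvage, rose by 2.29 and 2.23 (adjusted p = 0.0439 and 0.0498). The one closer to the start, at 27861 bp, had 17.4, 18.02 and 16.9 in imKO, against 5.10, 1.16 and 3.60 in Ctr. In chronic libraries the same pair changed by 3.32 and 2.91 without passing (adjusted p = 0.114 and 0.132), and both groups were apart there too. An intron of the zinc finger gene Zfp608 rose by 2.18 (adjusted p = 0.0237), and a region 51172 bp upstream of the predicted gene Gm30726 rose by 2.12 (adjusted p = 0.041). An intronic region of Camkk1, a kinase that activates other calcium-dependent kinases, had 39.6, 24.3 and 42.4 in imKO, against 11.9, 9.27 and 12.2 in Ctr libraries (log2 change 1.56, adjusted p = 0.0319).

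Regions beside a pair of autophagy genes, named after their values were seen, passed in the acute series alone. The region 1134 bp upstream of Sqstm1, which encodes the autophagy receptor p62, had 60.8, 80.7 and 73.7 in acute imKO and 35.7, 35.3 and 33.9 in acute Ctr libraries, a log2 change of 1.01 (SE 0.21, adjusted p = 0.0358). Its chronic values were 52.9, 33.1 and 55.0 in imKO and 41.0, 53.9 and 49.96 in Ctr libraries, which overlap. An intronic region of Ulk1, the kinase that starts autophagy, had 132, 176 and 117 in acute imKO and 88.3, 86.9 and 85.8 in acute Ctr libraries (log2 change 0.68, adjusted p = 0.0498). This change was the smallest among acute regions called higher. Under alternative processing the Ulk1 call was lost in 12 of 18 results and the Sqstm1 call in 7 of 18. No list of autophagy genes was counted. Nav2, a gene of neurite outgrowth, held a region in its first intron that rose by 1.59 in the acute series (adjusted p = 0.00475) and changed by 0.69 in the chronic series (adjusted p = 0.743).

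The 2 acute regions called lower lay far from any BCL6 peak. A region 124234 bp upstream of Serpini2, a serpin gene, had 8.46, 16.5 and 2.41 in imKO and 34.8, 37.1 and 28.8 in Ctr libraries, a log2 change of -2.06 (SE 0.40, adjusted p = 0.0237). A region in an intron of Ppp1cc, a catalytic subunit of protein phosphatase 1, had 10.6, 10.2 and 9.63 in imKO and 32.3, 29.5 and 35.3 in Ctr libraries (log2 change -1.58, SE 0.31, adjusted p = 0.0237). The Ppp1cc region was also lower in every chronic imKO library, with 4.36, 4.96 and 5.06, against 12.7, 11.6 and 13.0 in chronic Ctr, though it did not pass there (adjusted p = 0.62).
The acute calls rested on few libraries: 3 regions were called without imKO_6349, 5 without imKO_6346 and 9 without Ctr_6366. With a common variance prior none was called, although 4450 had an unadjusted p under 0.05, and edgeR on the recovered reads called 85.

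The chronic comparison does the same for the libraries of week 12. Of 48994 regions tested, 49 were higher and 5 lower in imKO (0.1102%). Over all 68752 merged regions tested, 0.167% were called, 0.156% higher and 0.0116% lower. The median log2 change was 0.0426, and the 5th and 95th percentiles were -0.76 and 0.99. Distal regions that held BCL6 had 36 higher and 2 lower of 2391 (1.589%), with a median of 0.18. The 54 calls fell into 45 loci and were nearest to 48 genes.

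Among regions of growth hormone signalling genes, calls were made near Akt1 and Cish. Cish encodes a feedback inhibitor of STAT5 signalling, and 2 of its 4 regions rose. The one 10911 bp from the start (chr9:107307320-107307820), 43 bp from a BCL6 peak, had 91.6, 96.0 and 74.6 in chronic imKO and 16.4, 37.2 and 15.2 in chronic Ctr libraries. Every imKO library was above every Ctr library, and the log2 change was 1.99 (SE 0.30, adjusted p = 0.0056). Its acute values were 70.3, 41.5 and 74.1 in imKO and 80.7, 39.96 and 78.6 in Ctr libraries, a change of -0.07. The one at 8908 bp (chr9:107305317-107305817) had 79.1, 65.6 and 72.1 in chronic imKO and 26.1, 20.5 and 16.9 in chronic Ctr libraries (log2 change 1.74, SE 0.25, adjusted p = 0.00484). Its acute change was 0.12, with overlapping groups. A region of the neighbouring methyltransferase gene Hemk1, within 19986 bp of these, rose by 1.23 (adjusted p = 0.0453) in the chronic series.

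Further chronic calls are given by their nearest gene. The fixed lists of muscle fibre genes held no call, and Mybph and Car3 were named after their values were seen. Mybph encodes myosin binding protein H, a thick filament protein. A region in an intron of it had 128, 128 and 88.5 in chronic imKO and 43.3, 37.2 and 25.6 in chronic Ctr libraries (log2 change 1.68, SE 0.23, adjusted p = 0.00422), and an acute change of 0.02. Eif4ebp1 encodes 4E-BP1, which holds back cap-dependent translation until mTORC1 phosphorylates it. A region in its first intron, 2567 bp from the start (chr8:27262406-27263383), had 52.9, 73.4 and 65.8 in chronic imKO, against 14.9, 11.6 and 25.2 in chronic Ctr libraries (log2 change 1.89, SE 0.30, adjusted p = 0.0102). In the acute series it had 52.3, 36.8 and 56.3 in imKO and 16.1, 28.4 and 27.4 in Ctr libraries, also apart but not called (log2 change 1.01, adjusted p = 0.164). Car3 encodes carbonic anhydrase III, abundant in slow muscle and fat, and a region 22939 bp upstream of it had 52.9, 59.0 and 53.8 in chronic imKO, against 13.4, 8.98 and 19.1 in chronic Ctr (log2 change 1.98, adjusted p = 0.00797). Acadl encodes a mitochondrial dehydrogenase of fatty acid oxidation, and a region 34207 bp upstream had 73.1, 64.0 and 64.5 in chronic imKO and 26.1, 11.6 and 22.2 in chronic Ctr (log2 change 1.77, adjusted p = 0.0148).

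A region 46283 bp from the start of Nfkbia, the inhibitor of NF-kB, had 99.3, 101 and 77.8 in chronic imKO and 51.5, 35.9 and 41.3 in chronic Ctr libraries, a log2 change of 1.10 (SE 0.21, adjusted p = 0.0458). Map3k8, a kinase upstream of ERK, was named after its values were seen and held an intronic region that rose by 2.48 (adjusted p = 0.00484).

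The largest chronic rises came from regions with few or no tags in Ctr. A region of Zfp777, a zinc finger gene, had 35.5, 25.4 and 13.3 in imKO and 0, 0 and 2.17 in Ctr libraries (log2 change 4.03, SE 0.70, adjusted p = 0.022). One near A830029E22Rik had 42.0, 25.9 and 48.1 in imKO and 10.4, 0 and 0.43 in Ctr libraries (log2 change 3.92, adjusted p = 0.0243). These changes are on the log2(signal + 1) scale and depend on that added 1. Some regions were tested only because all 3 imKO libraries reached a signal of 5 while no Ctr library did, so that they had to be high in imKO to be tested at all, and their adjusted p is no support on its own. This held for 5 of the 49 regions called higher in the chronic series, nearest to Zfp777, Bod1, Gm14858, Ncbp3 and Tlr3, and for 0.335% of the chronic regions tested. In the acute series it held for 1 of 32, a Uck2 region, and 0.432% of those tested. The reverse held for the Bace1 region, tested only through chronic Ctr libraries. With no filter on low signal these calls stood, except that of Tlr3, which was lost. The smallest chronic adjusted p belonged to a region near Bod1, a chromosome biorientation gene, with 59.5, 52.4 and 32.3 in imKO and 2.99, 3.85 and 4.78 in Ctr libraries (log2 change 3.30, SE 0.38, adjusted p = 0.00125). A region 49028 bp from the start of Xkr5 had 29.5, 45.8 and 41.1 in imKO and 2.24, 5.13 and 5.65 in Ctr libraries (log2 change 2.94, adjusted p = 0.00422). Ctnnbl1, which encodes a spliceosome-associated protein, held 3 called regions in introns within 23484 bp, with log2 changes of 1.95, 2.26 and 3.46 (adjusted p = 0.0331, 0.0107 and 0.0202). The region with the change of 3.46 had 36.5, 43.6 and 34.8 in imKO, against 7.46, 0 and 4.34 in Ctr libraries.

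The 5 chronic regions called lower were nearest to Tekt1, Vldlr, Bace1, Aldh8a1 and Slc41a2. Vldlr encodes the very low density lipoprotein receptor, and a region 29127 bp upstream had 7.09, 9.38 and 13.9 in chronic imKO and 60.5, 30.8 and 33.9 in chronic Ctr libraries (log2 change -1.92, SE 0.36, adjusted p = 0.0345). Bace1 encodes beta-secretase, and a region in its first intron had 3.27, 3.86 and 3.79 in imKO and 24.6, 19.2 and 20.9 in Ctr libraries (log2 change -2.28, SE 0.43, adjusted p = 0.0391). The 3 imKO values of the Bace1 region were alike, and the region was 1963 bp from a BCL6 peak. Aldh8a1, an aldehyde dehydrogenase gene, had a region with 1.64, 3.86 and 8.85 in imKO and 17.2, 41.0 and 42.1 in Ctr libraries (log2 change -2.68, adjusted p = 0.0349). A region of Slc41a2, a magnesium transporter gene, had 9.27, 8.27 and 12.02 in imKO, against 32.1, 44.9 and 28.7 in Ctr libraries (log2 change -1.73, adjusted p = 0.0453). Tekt1 encodes a protein of ciliary microtubules, and its region had 45.8, 43.6 and 30.4 in imKO and 84.3, 105 and 88.2 in Ctr libraries (log2 change -1.21, adjusted p = 0.0304).
The number of chronic calls turned on single libraries. None was called in limma without imKO_1794, without imKO_1802 or without imKO_1803, where 2182, 2177 and 2298 regions had an unadjusted p under 0.05, and 214 were called (169 higher, 45 lower) without the shallow Ctr_1801. With quantile normalization 157 were called (121 higher, 36 lower), and edgeR on recovered reads called 197 (158 higher, 39 lower).

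**Figure D1:**
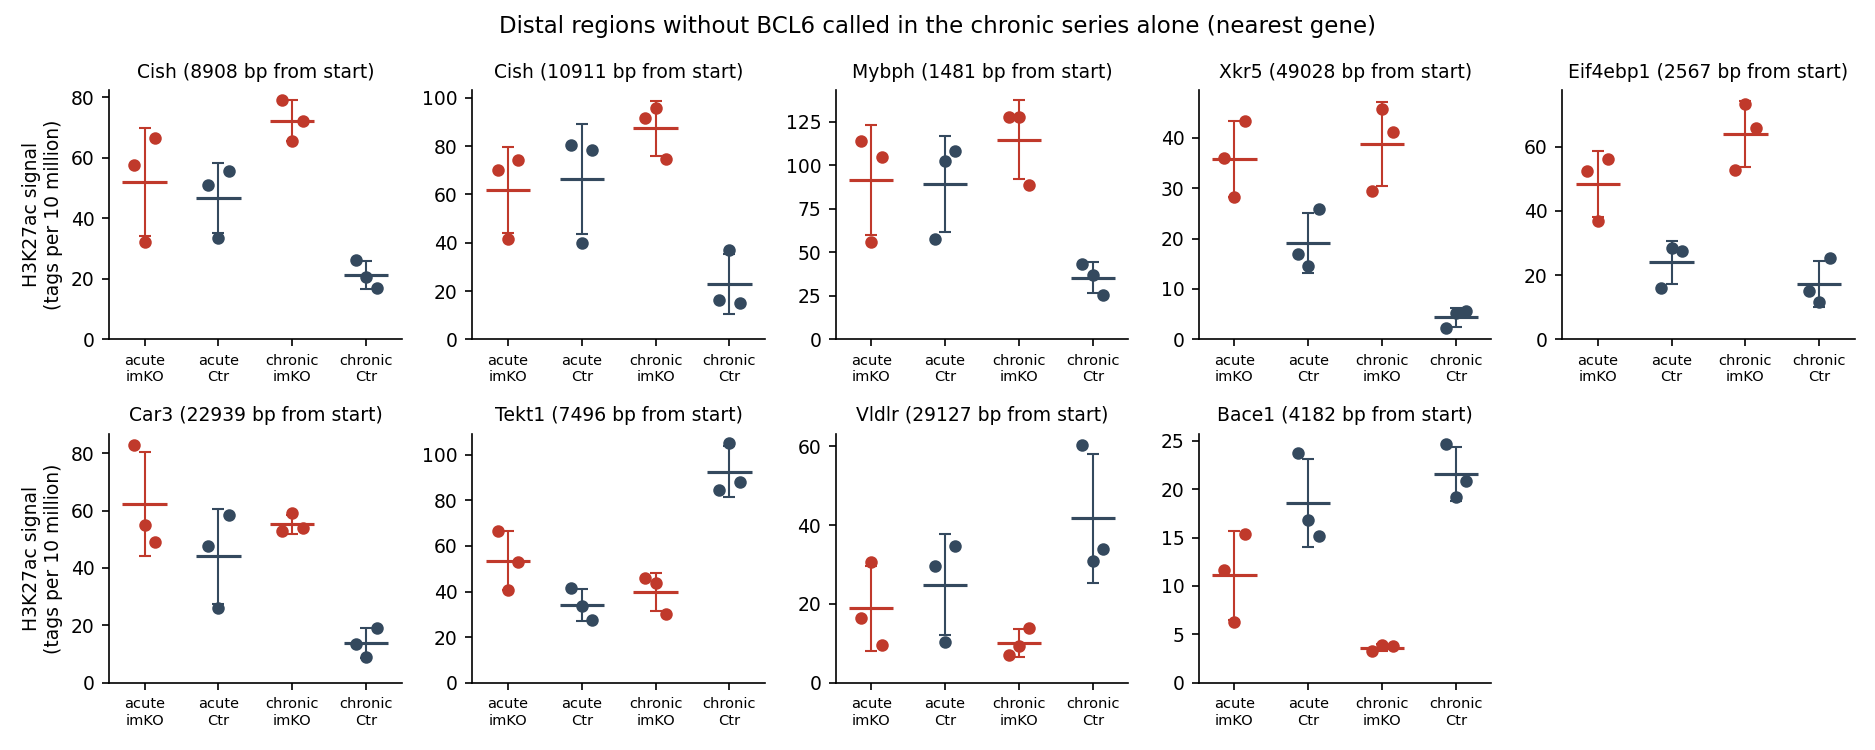
H3K27ac signal (tags per 10000000, y axes from 0) of 9 distal regions without BCL6 that were called in the chronic series alone, in acute imKO, acute Ctr, chronic imKO and chronic Ctr libraries (points; lines are means, bars SD, n = 3 each). The Cish and Mybph regions sit at like levels in both acute groups and apart in the chronic groups, and the Vldlr and Bace1 regions are low in chronic imKO.

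Regions called in one series were looked up in the other, whose mice and control libraries differ. Of the 34 acute calls, 31 had the same direction in the chronic series, 23 had chronic groups that did not overlap in that direction, and 11 were called there. Of the 54 chronic calls, 49 had the same direction in the acute series, 34 had groups without overlap, and 11 were called. Beside these counts, groups did not overlap, in either direction, in 12.54% of chronic and 13.13% of acute tested distal regions without BCL6. Over all merged regions tested it was 12.6% in the chronic and 13.0% in the acute series. Shares called were 0.1102% chronic and 0.06583% acute, beside 0.167% and 0.0932% of all merged regions. Regions called higher in the acute series had a median log2 change of 1.87 there and 1.93 in the chronic series. Regions called higher in the chronic series had a median of 2.18 there and 0.96 in the acute series. Values in the series that made the calls are high by choice. Over all 48420 regions tested in both, the correlation of the changes was 0.134, a description across regions that share libraries.

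**Figure D2:**
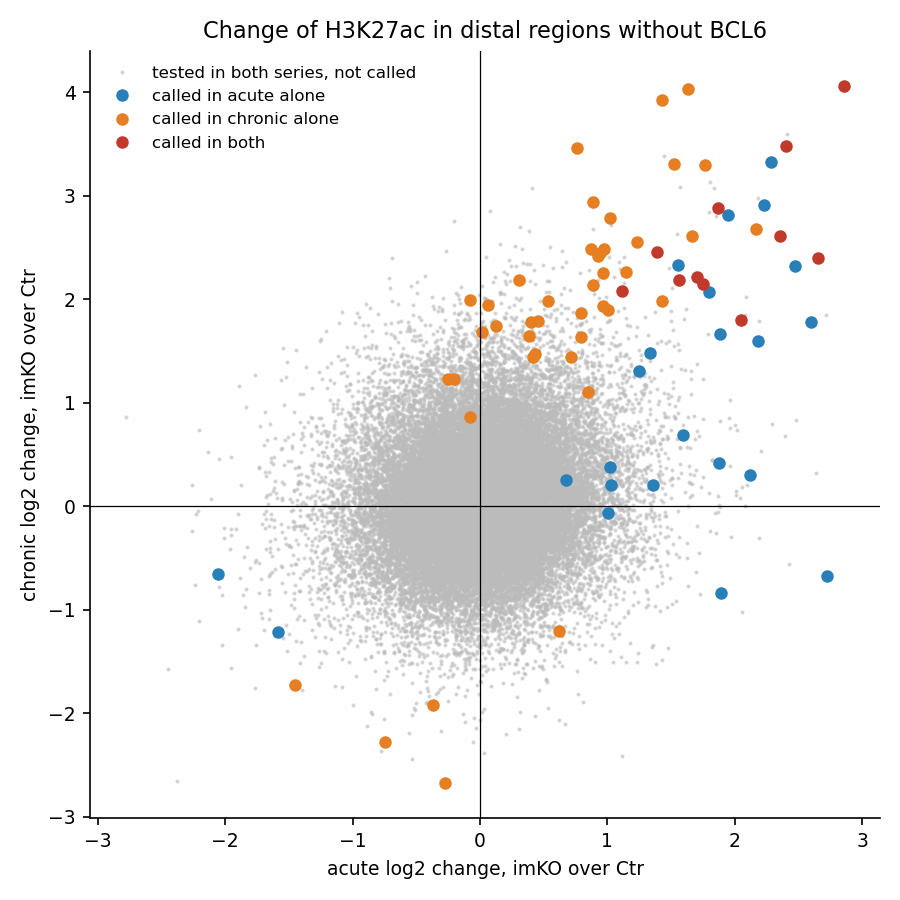
Log2 change of H3K27ac, imKO over Ctr, in the acute (x axis) and the chronic series (y axis) for 48420 distal regions without BCL6 tested in both; colours mark regions called in acute alone (23), in chronic alone (43) and in both (11). All 11 called in both lie in the upper right.

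The 11 regions called in both series were all higher in imKO, and lay in 9 loci. Among them, the Ncbp3 and Gm14858 regions were tested in the chronic series only through imKO libraries. Their chronic calls are thus no support on their own. A region in the second intron of Mreg, which encodes a protein of melanosome and lysosome transport (chr1:72171430-72171930), lay 7 bp from a BCL6 peak. It had 28.0, 29.0 and 33.7 in acute imKO and 6.80, 2.90 and 5.77 in acute Ctr libraries, and 45.3, 47.4 and 43.0 in chronic imKO against 3.73, 1.28 and 5.65 in chronic Ctr libraries. Every imKO library was at least several times every Ctr library, with log2 changes of 2.399 and 3.48 (SE 0.37 and 0.43, adjusted p = 0.00219 and 0.00242). The Samd7 region had 69.8, 64.0 and 48.7 in chronic imKO and 17.2, 7.70 and 13.5 in chronic Ctr libraries (log2 change 2.21, SE 0.32, adjusted p = 0.00484).

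A region in an intron of Vps53, a subunit of a complex that returns vesicles to the Golgi (chr11:76125284-76125784), had 35.9, 56.4 and 43.8 in acute imKO and 13.6, 16.2 and 13.7 in acute Ctr libraries. In chronic libraries it had 60.0, 51.3 and 54.4 in imKO and 14.9, 8.98 and 10.9 in Ctr (log2 changes 1.56 and 2.18, adjusted p = 0.0104 and 0.00422). Another Vps53 intron region, 81 bp from a BCL6 peak, rose in the chronic series by 3.30 (adjusted p = 0.0388), and missed in the acute series at a change of 1.76 (adjusted p = 0.0502). Ncbp3 encodes an RNA cap-binding protein, and its region 26 bp from a BCL6 peak had 50.2, 11.8 and 47.2 in acute imKO, against 4.25, 4.05 and 7.93 in acute Ctr libraries. Its chronic values were 18.6, 18.8 and 22.1 in imKO and 2.99, 2.57 and 1.74 in Ctr (log2 changes 2.35 and 2.61, adjusted p = 0.0119 and 0.0369). The acute imKO libraries were uneven here, with imKO_6348 far below the other two.

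Psma6 encodes a proteasome subunit, and a region between it and Nfkbia had 25.4, 19.6 and 18.3 in acute imKO, against 2.55, 0.58 and 6.49 in acute Ctr. In the chronic series it had 30.0, 36.4 and 25.9 in imKO and 3.73, 3.85 and 8.26 in Ctr libraries (log2 changes 2.65 and 2.3998, adjusted p = 0.0168 and 0.0164). It lay 27005 bp from the nearest BCL6 peak. A region 9089 bp upstream of Ypel5 had 32.8, 18.8 and 30.8 in acute imKO and 8.49, 4.63 and 7.21 in acute Ctr, and 48.5, 33.1 and 34.8 in chronic imKO against 2.24, 7.70 and 4.34 in chronic Ctr (log2 changes 1.87 and 2.88, adjusted p = 0.0237 and 0.00484).

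Regions around a pair of predicted or unnamed transcripts complete the 11. Gm29684 on chromosome 10 had 2 neighbouring intronic regions called in both series and another called in the chronic series, all within 53498 bp. The one at chr10:95140839-95141339, on a LINE element, rose by 1.11 in the acute and 2.08 in the chronic series (adjusted p = 0.0169 and 0.00521). The one at chr10:95141441-95141941 had 67.7, 46.2 and 75.1 in acute imKO and 14.4, 21.4 and 38.9 in acute Ctr, and 40.9, 53.0 and 44.3 in chronic imKO against 9.70, 7.70 and 5.65 in chronic Ctr. The groups were apart in both series (log2 changes 1.39 and 2.46, adjusted p = 0.0289 and 0.00414). The Gm14858 region on chromosome X (chrX:102339353-102339853) had 17.97, 16.5 and 16.4 in acute imKO and 0.85, 0 and 7.21 in acute Ctr, and 24.0, 24.3 and 25.3 in chronic imKO against 1.49, 0 and 0.43 in chronic Ctr. Its fitted chronic change of 4.06 rests on 2, 0 and 1 reads in the Ctr libraries. A second region of Gm14858, within 11511 bp of the first, rose by 2.47 in the acute series (adjusted p = 0.0113).

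**Figure D3:**
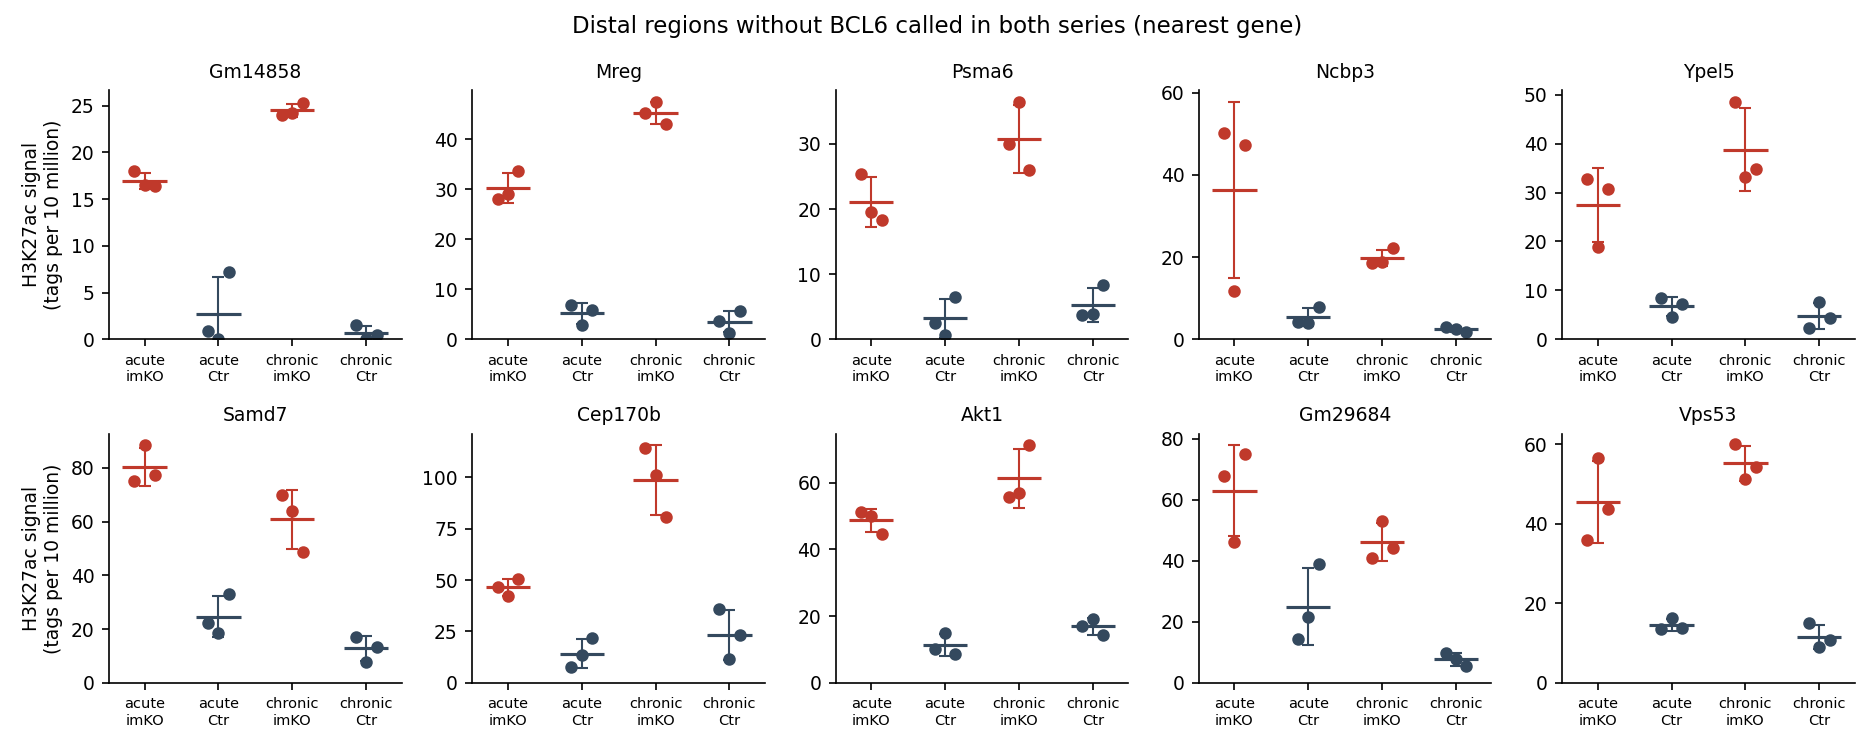
H3K27ac signal (tags per 10000000, y axes from 0) of the 10 regions with the largest summed change among the 11 called in both series, in acute imKO, acute Ctr, chronic imKO and chronic Ctr libraries (points; lines are means, bars SD, n = 3 each). In each panel all imKO points lie above all Ctr points of the same series.

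Whether the effect differed between the series was tested as an interaction over all 12 libraries. None of 68055 merged regions passed (0.0%), and 2534 of the 48420 distal regions without BCL6 (5.233%) had an unadjusted p under 0.05. With edgeR on recovered reads 3 of them passed. The Tekt1 region had the smallest of these p-values, with a limma adjusted p of 0.23. It had 66.6, 40.8 and 53.0 in acute imKO and 41.6, 33.6 and 27.4 in acute Ctr libraries, an acute change of 0.62 (adjusted p = 0.487) beside its chronic fall. After it came the Cish region at 10911 bp (limma adjusted p = 0.845) and the Mybph region (limma adjusted p = 0.94). For Cish and Mybph the difference between acute and chronic changes thus did not pass over all regions.

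The share called higher differed with the distance to the nearest BCL6 peak, a difference that was not tested. All regions lacked a peak by rule, and their median gap to one was 36403.5 bp. Of 2232 regions within 1 kb of a peak tested in the chronic series, 25 were higher (1.12%) and none lower, with a median change of 0.14. From 1 to 5 kb, 10 of 4707 were higher (0.2124%), with a median of 0.07. Beyond, 1 of 11172 was higher at 5 to 20 kb, 9 of 19053 at 20 to 100 kb and 4 of 11830 above 100 kb, with medians of 0.03 to 0.04. Without the shallow Ctr_1801 the median was -0.0653 over all these regions, 0.0354 within 1 kb and -0.0935 above 100 kb, and more regions were called higher at every distance. Then 55 of 2212 were higher within 1 kb, 40 of 4598 from 1 to 5 kb, 26 of 10946 at 5 to 20 kb, 38 of 18523 at 20 to 100 kb and 10 of 11396 above 100 kb. The chronic counts with all libraries include the 5 regions tested only through imKO libraries. Of those, the Ncbp3 region lay within 1 kb and the Bod1 and Zfp777 regions from 1 to 5 kb.

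In the acute series the share was also highest within 1 kb and next from 1 to 5 kb. Within 1 kb of a peak 12 of 2268 were higher (0.5291%), with a median change of 0.06, and from 1 to 5 kb 9 of 4854 (0.1854%). At 5 to 20 kb 3 of 11620 were higher, at 20 to 100 kb 6 of 20110, and above 100 kb 2 of 12794, with medians from 0.01 down to -0.03. The acute counts include the Uck2 region tested only through imKO libraries. Correlation between acute and chronic changes was 0.383 within 1 kb, 0.191 at 1 to 5 kb, 0.13 at 5 to 20 kb, 0.109 at 20 to 100 kb and 0.09 beyond. The shares are descriptions over regions, and signal level was not matched across distances. Leaving out all regions within 1000 bp of a peak left 22 acute calls (20 higher, 2 lower) and 29 chronic calls (24 higher, 5 lower).

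**Figure D4:**
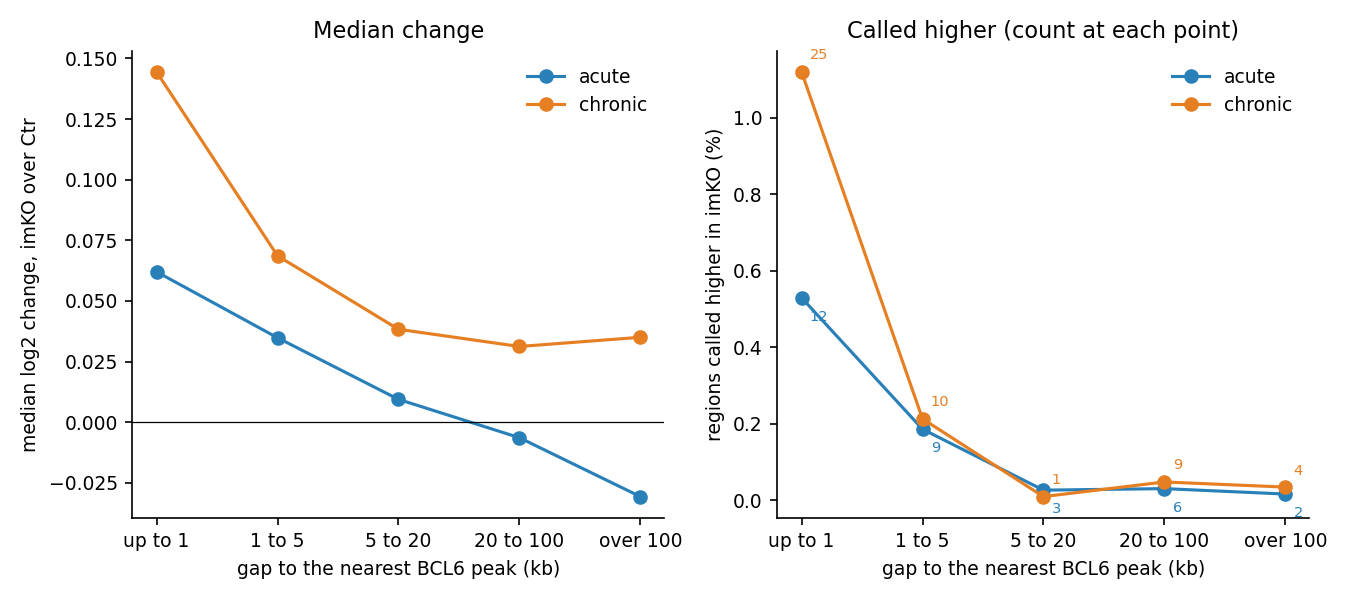
Median log2 change, imKO over Ctr (left) and percentage of regions called higher in imKO (right, numbers are counts of regions) by gap to the nearest BCL6 peak in kb, for distal regions without BCL6 in the acute and chronic series. The percentage is highest within 1 kb, 0.5291% in the acute and 1.12% in the chronic series.

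Most of those nearby peaks were not in any merged region. Of the 10925 BCL6 peaks, 3449 (31.57%) overlapped a merged H3K27ac region. For acute regions called higher within 5 kb of a peak, that peak lay in no merged region in 17 of 21 cases, and for chronic ones in 26 of 35, against 73.66% and 73.68% over all tested regions within 5 kb. In the other cases the peak lay in a neighbouring acetylated region that could be followed too. Of 9 such neighbours in the chronic series 6 were called, all higher, nearest to Bod1 (2.71), Vps53 (1.80), Crim1 (1.91), Ctnnbl1 (4.33), Zfp777 (2.87) and Ccdc155 (1.53, log2 changes). In the acute series 1 of 4 was called. For regions called higher beyond 5 kb, 2 of 6 chronic and 0 of 5 acute neighbours were called. Of all distal regions that held BCL6, 1.589% were called in the chronic and 0.9136% in the acute series. The neighbours were picked beside regions called in the same libraries, and the difference was not tested. Beside the Bod1 and Zfp777 neighbours, the called regions were tested in the chronic series only through imKO libraries. Those chronic calls are no support on their own. The neighbour of the Zfp777 region had 39.8, 45.8 and 46.2 in chronic imKO and 4.48, 2.57 and 10.9 in chronic Ctr libraries.

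Where the authors' acute peak call came from moved with the changes as well. Regions called as peaks in acute imKO alone had a median acute change of 0.17 and 22 of the 32 higher calls, those of Ctr alone a median of -0.18 and 2, and those of both a median of -0.0049 and 8. This acute order follows from how the regions were found. In the chronic libraries, which had no part in it, medians were 0.06 for imKO alone, 0.03 for Ctr alone and 0.04 for both, and higher calls numbered 27 of 15758, 4 of 15383 and 18 of 17853.

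Values on both sides of the rule's limits are given as a description. Just outside the 1000 bp limit that the rule sets lay regions of Itgb6 and Fst at 1001 bp, with acute log2 changes of -0.18 and -0.52 and chronic changes of 0.00 and 0.51. Just inside it, and so left out, were regions of Slc15a4 and Afap1 at 1000 bp, with acute changes of 0.05 and -0.12 and chronic changes of -0.96 and 0.09. Regions of Ndufb9 and Scarb2 lay 1 bp from a BCL6 peak and were kept, with acute changes of 0.26 and 0.59 and chronic changes of 1.07 and 0.24, and regions of Gm32865 and Uck2 overlapped a peak by 1 bp and were left out, with acute changes of 0.32 and 0.80 and chronic changes of 0.01 and 1.36.

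For 20 genes of interest in muscle growth and BCL6 biology, 121 regions were found, of which 118 were tested in the acute series with 1 higher and 110 in the chronic series with 4 higher. That is 0.847% and 3.64% of them, beside 0.06583% and 0.1102% over all distal regions without BCL6, but the genes were chosen with earlier results of these data known. The calls were those of Akt1 (1 of its 2 regions in both series), Cish (2 of 4, chronic) and Eif4ebp1 (1 of 2, chronic). Bcl6 itself had a strongest region of 229 ± 8.91 in acute imKO and 207 ± 17.5 in acute Ctr libraries, and 215 ± 17.7 in chronic imKO and 192 ± 21.1 in chronic Ctr (SD, n = 3; adjusted p = 0.738 and 0.84). Sln, which encodes sarcolipin, an inhibitor of the calcium pump SERCA, had 25.5 ± 11.4 in acute imKO and 8.69 ± 4.67 in acute Ctr, and 20.1 ± 8.39 in chronic imKO and 3.88 ± 1.92 in chronic Ctr (log2 changes 1.51 and 2.11, adjusted p = 0.174 and 0.123). Casq2, the slow and cardiac calsequestrin, had 50.01 ± 5.46 in chronic imKO and 22.3 ± 2.11 in chronic Ctr libraries at its strongest region (log2 change 1.13, adjusted p = 0.115).

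Smox encodes spermine oxidase, and its strongest region had 37.8 ± 8.16 in chronic imKO and 73.8 ± 19.97 in chronic Ctr libraries (log2 change -0.93, adjusted p = 0.263). Igf1, the growth factor gene, had 21.9 ± 4.04 in acute imKO and 40.9 ± 17.4 in acute Ctr at its strongest region (log2 change -0.80, adjusted p = 0.462), and none of its 15 regions was called. Socs2, another feedback inhibitor of growth hormone signalling, had 80.3 ± 8.31 in chronic imKO and 57.5 ± 16.0 in chronic Ctr (adjusted p = 0.699). Mstn, the gene of the growth inhibitor myostatin, had 53.4 ± 6.82 in chronic imKO and 43.4 ± 17.1 in chronic Ctr (adjusted p = 0.841). No region of Fbxo32 or Trim63, the ubiquitin ligases of atrophy, of Ddit4 or Fkbp5, both glucocorticoid targets, or of Kcng4, Chrna9, Esr1, Usp46, Ppp1r12b or Igfbp5 was called.

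In wider gene lists, chosen with earlier results known, each share below rests on 1 to 3 regions, beside 0.06583% of all these regions called in the acute and 0.1102% in the chronic series. In the growth hormone and IGF1 list 1 of 241 tested regions was higher in the acute series and 3 of 226 in the chronic series (0.415% and 1.33%), with medians of -0.0161 and 0.0886. The mTORC1 and translation list had 1 of 73 in the chronic series (1.37%), the Eif4ebp1 region. Fatty acid oxidation had 1 of 103 (0.971%), the Acadl region, and the interferon and NF-kB list 1 of 61 (1.64%), the Nfkbia region. Lists of fast fibre, slow fibre, glycolysis, denervation, atrophy, glucocorticoid, immediate early, clock, lipid synthesis, corepressor and satellite cell genes held no call in either series. Their medians ran from -0.0452 to 0.1092 in the acute series and from -0.0795 to 0.1995 in the chronic series, beside -0.0021 and 0.0426 over all the regions. Summed signal of the mTORC1 list was higher in imKO without overlap in both series. It ran from 1853 to 1987 against 1725 to 1833 (acute), and 1890 to 2054 against 1555 to 1820 (chronic). Denervation (2095 to 2244 against 1687 to 2004), atrophy (2431 to 2672 against 2076 to 2345) and clock sums (3372 to 3540 against 2989 to 3342) did so in the chronic series alone. Sums of the other lists of this paragraph overlapped, and none was tested. Groups of single regions did not overlap, in either direction, in 13.13% of acute and 12.54% of chronic tested regions. The mTORC1 sums include the Eif4ebp1 region, at 48.5 ± 10.3 in acute imKO and 24.0 ± 6.80 in acute Ctr libraries. They were not summed without it.

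RNA of other mice was set beside the regions through the nearest gene, which need not be the gene a region acts on. Poly(A) RNA was measured in 5 mKO and 4 Ctr muscles without Cre, and RiboTag mRNA in 4 mKO and 4 Ctr mice that all carried Cre and the RiboTag allele. The RiboTag Ctr mice thus differed in alleles from the ChIP Ctr mice, which had no Cre. All of these mice had received tamoxifen. Over all genes 5.56% were called in poly(A) RNA (2.14% higher, 3.42% lower) and 4.21% in RiboTag mRNA (1.95% higher, 2.25% lower). Among genes nearest to any distal region without BCL6, poly(A) RNA was higher for 333 and lower for 702 of 11717 genes (404 and 437 with quantile normalization), and RiboTag mRNA was higher for 203 and lower for 278 of 8728.

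Of 62 genes nearest to a region called higher in either series, 23 were higher and 1 lower in poly(A) RNA, and of 51 tested in RiboTag mRNA 13 were higher and none lower. Of 7 genes nearest to a region called lower, 2 were lower in poly(A) RNA, and 2 of 5 in RiboTag mRNA, Vldlr and Bace1 in both. Looked at from the RNA, regions nearest to genes higher in RiboTag mRNA had 8 higher and no lower calls of 961 in the acute series and 11 and none of 934 in the chronic series, with medians of 0.1051 and 0.2278. Regions nearest to genes lower in RiboTag mRNA had no higher or lower call of 1806 in the acute series. In the chronic series they had no higher and 2 lower calls of 1730. Their medians were -0.0484 and -0.0653. Regions nearest to genes tested but not called had 18 higher and 1 lower calls of 38759 (acute), and 30 and 2 of 36888 (chronic). Medians there were 0.0003 and 0.0395. Over all distal regions without BCL6, 0.06196% were called higher in the acute and 0.1% in the chronic series. Differences between these shares were not tested.

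Of 56 genes nearest to a called region and tested in both RNA sets, 11 were called in both, in the direction of the acetylation. The share of all genes called in both sets was not counted, and 5.56% were called in poly(A) and 4.21% in RiboTag mRNA. Among their regions, the chronic Ncbp3 region and an acute Uck2 region were tested only through imKO libraries. The chronic Bace1 region was tested only through Ctr libraries. Akt1 had 389.6 to 489.4 CPM in mKO RiboTag mRNA (median 444.75), against 151.2 to 162.1 CPM in Ctr (median 157.1), so that the groups were far apart (log2 change 1.49, SE 0.09, edgeR adjusted p = 3.89e-06). In poly(A) RNA its authors' log2 values averaged 10.52 ± 0.034 in mKO (n = 5) and 9.87 ± 0.061 in Ctr (n = 4; change 0.65, limma adjusted p = 5.27e-05). Eif4ebp1 had 107.8 to 141.9 CPM in mKO and 48.55 to 56.83 CPM in Ctr RiboTag mRNA (log2 change 1.25, SE 0.10, edgeR adjusted p = 3.51e-05). Spns3, of the spinster transporter family, had 27.1 to 51.7 CPM in mKO and 0.702 to 1.21 CPM in Ctr (log2 change 5.41, SE 0.26, edgeR adjusted p = 6.33e-07). Its region, 3118 bp from a BCL6 peak, had 44.2, 48.5 and 41.1 in chronic imKO, against 9.70, 2.57 and 15.2 in chronic Ctr libraries (log2 change 2.42, limma adjusted p = 0.0308).

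Ctnnbl1 averaged 65.9 ± 3.65 CPM in mKO and 25.9 ± 3.62 CPM in Ctr RiboTag mRNA, Uck2 41.1 ± 1.93 CPM in mKO and 18.2 ± 2.52 CPM in Ctr, and Camkk1 16.3 ± 1.87 CPM in mKO and 5.89 ± 1.82 CPM in Ctr (SD, n = 4 each). Their log2 changes were 1.35, 1.17 and 1.48. Smaller changes were those of Ncbp3 (0.62), Mrps35, a mitochondrial ribosomal protein gene (0.55), and Mreg (0.46). Vldlr was lower, at 249 ± 26.8 CPM in mKO and 340 ± 27.5 CPM in Ctr (log2 change -0.45, adjusted p = 0.0232 in edgeR), and so was Bace1, at 108 ± 10.4 CPM in mKO and 159 ± 15.7 CPM in Ctr (log2 change -0.56, adjusted p = 0.00717 in edgeR).

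Other genes did not follow their regions. Cish had chronic regions that rose, while its RNA changed by -0.42 in poly(A) RNA (limma adjusted p = 0.0798) and -0.22 in RiboTag mRNA (edgeR adjusted p = 0.896). Foxn3, a forkhead repressor gene, was lower in poly(A) RNA by 0.49 (limma adjusted p = 0.0239), whereas a region in its second intron rose by 1.79 in the chronic series. Psma6, Ypel5 and Cep170b, each with a region called in both series, were called in neither RNA set, and their RiboTag changes were 0.05, 0.04 and 0.27. The labels of these RNA libraries were not matched in time to either ChIP series, and the chronic poly(A) libraries were not analysed here.

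**Figure D5:**
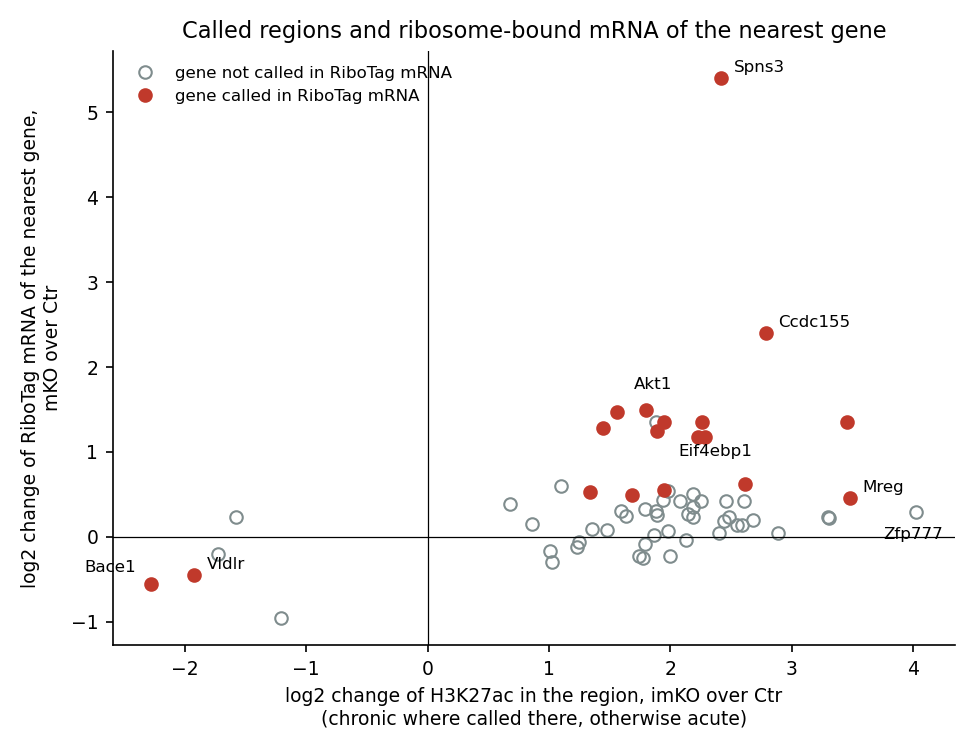
Log2 change of RiboTag mRNA of the nearest gene, mKO over Ctr (y axis), against log2 change of H3K27ac in each called distal region without BCL6, imKO over Ctr (x axis; chronic where called there, otherwise acute). Filled points are regions whose nearest gene was called in RiboTag mRNA: Spns3 stands highest, and Vldlr and Bace1 are the filled points on the lower left.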

How the data were processed

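The deposited H3K27ac signal is, per the file headers, HOMER's number of tags in each merged region, scaled by the authors to 10000000 tags per library, on mm10. The submitters' processing notes name Bowtie 1.2, STAR 2.4.0, HOMER (no version) and DESeq2 1.14.1, without saying which made which file. The BCL6 peak list gives the authors' score per peak, which was not used here. Deposited counts per gene were used for RiboTag mRNA, whose labels list an anti-HA antibody and poly(A) RNA, so that whether it is whole muscle or a pull-down cannot be told apart. Per the file headers, the poly(A) table holds log2 values of the authors, whose transform is not named.

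Regions were matched to BCL6 peaks by an overlap of at least 1 bp. Signal was tested as log2(signal + 1) with limma 3.58.1 (trended variance) on regions with a signal of at least 5 in at least 3 libraries of a series, RiboTag counts with the quasi-likelihood test of edgeR 4.0.16 after TMM scaling, on genes that filterByExpr kept at min.count 10, and poly(A) log2 values with limma. P-values were Benjamini-Hochberg adjusted over all regions or genes tested, and calls made below 0.05. Nearest genes are those of the authors' annotation. Whole reads could be recovered from 100% of the signal values, within 0.0115 reads of a whole number, and edgeR on them called 85 acute and 197 chronic regions of those described. Depth was 7794885 to 23016334 tags for ChIP. Counts and shares carry counting error besides the spread between libraries. The limma and edgeR fits were first tested on simulated data, whose results are not given here. Simulated ChIP libraries differed in depth but not in enrichment, unlike Ctr_1801, so that test is no support for the calls.

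The members and lists were chosen with earlier results of these data known. Named regions are the 8 highest and 8 lowest changes per series among called regions with mean signal of at least 10 and groups without overlap, up to 10 called in both series, the strongest and the called regions of 20 genes, the 10 strongest per kb, up to 3 called per gene list, the 5 genes with most called regions and regions at the rule's limits. Regions of other genes named in the text (Camkk1, Sqstm1, Ulk1, Nav2, Hemk1, Mybph, Car3, Map3k8, Tlr3, Spns3, Foxn3, Cdh26, Gm35815, Gm40491) were chosen after their values were seen. Alternatives were another pseudocount, filter, scaling, test, variance prior, rule limit, and leaving out each library. Other tools were R 4.3.3, DESeq2 1.42.0, Python 3.11.15, pandas 2.3.3, numpy 2.4.6 and matplotlib 3.10.9. H3K27ac windows on BCL6 peaks, nascent RNA, footprints, chronic poly(A) RNA (4 imKO, 4 Ctr) and oil-treated mice were not used here. Not every called region is named, and the result of 1 of them is not reported here.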

Additional observations from a re-analysis of the deposited data

Results flagged for a closer look

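Single libraries stood apart in 3 of 48 groups of RNA values checked, over 12 genes nearest to called regions or targeted; by chance about 1 in 20 such groups does. In poly(A) RNA, 1 of 4 Ctr muscles had a Bace1 log2 value of 9.94, the others 9.71 to 9.75 (gap over range 0.844, against a limit of 0.829). In RiboTag mRNA, 1 of 4 Ctr mice had 27.2 CPM of Mrps35, the others 33.5 to 34.4 (0.877), and 1 of 4 had 21.97 CPM of Uck2, the others 16.7 to 17.2 (0.91). Groups of 3 ChIP libraries were too small for this check.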

How the results depend on the processing

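Of the regions described, 34 were called in the acute and 54 in the chronic series. A pseudocount of 5 gave 82 (73 higher, 9 lower) and 120 (103 and 17), and a pseudocount of 0.5 gave 34 in the chronic series (33 and 1). Quantile normalization gave 157 in the chronic series. On recovered reads, edgeR gave 85 (75 and 10) and 197, DESeq2 160 in the chronic series (124 and 36). A common variance prior gave 0 and 0, with 4450 and 3638 regions at an unadjusted p under 0.05, and fitting all 12 libraries together gave 7 and 160. Keeping regions with no BCL6 peak within 1000 bp gave 22 and 29. Leaving out 1 library gave 3 to 34 acute and 0 to 214 chronic calls, and 0 to 1 for the difference between the series, for which edgeR gave 3. Of genes nearest to the regions, 1035 were called in poly(A) RNA, 693 to 841 with 1 library left out, and 1543 when only genes with a mean log2 value above 5 were tested, a limit chosen after seeing the data. In RiboTag mRNA 481 were called, 324 to 643 with 1 library left out and 756 (280 higher, 476 lower) with DESeq2. The cause of these moves was not tested.

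None of the 34 acute and 54 chronic calls changed direction under the alternatives run. Groups did not overlap in any of these calls, so leaving out a library could not reverse one, and this is no support for them. Regions named without a call were not refitted. Under the alternatives other than leaving out a library, 331 results of the acute calls kept the call and 79 lost it. For the chronic calls 567 results kept it and 101 lost it. These counts include alternatives that only took regions out, by a larger distance from starts, by BCL6 peaks within 1000 bp, or on X and Y. Regions left in were not refitted there and could not lose a call. They make up 30, 22 and 32 of the acute and 51, 29 and 53 of the chronic results that kept it, which are no support. With 1 library left out, 74 acute fits kept the call and 127 lost it, and 138 chronic fits kept it and 168 lost it. The fitted chronic change of the Gm14858 region ran from 2.3965 to 5.1858. No paired analysis was possible because the groups compared share no replicate numbers. Depth limits weak regions: 6.955% of the regions had no tag in Ctr_1801.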
